A study of Homo sapiens with 33 samples.

Results

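The proteasome genes on the array were taken by symbol: PSMA, PSMB, PSMC, PSMD or PSME followed by a number, with 1 symbol per probe set. The letters matched 61 probe sets. Of these, 3 belong to PSMC3IP and PSME3IP1, which encode binding partners and not subunits, and were left out. The remaining 58 probe sets stood for 36 genes, out of 19065 probe sets with 1 symbol and 11963 named genes. By role, 13 genes encode the constitutive core, 3 the immunoproteasome subunits and 20 the regulators that cap the core or help to build the cap. The genes PSMA6, PSMA8, PSMB11, PSMC5, PSMD7, PSMD13 and PSME2 had no probe set with a single symbol and were not analysed here. All 36 genes were tested in both experiments of the series, and the probe set used for each lay at or above its array's 40th percentile on 33 of 33 arrays.

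The proteasome is the protease that cuts proteins marked with ubiquitin into peptides. Its core is a barrel of outer rings of alpha subunits and inner rings of beta subunits, and the catalytic beta subunits PSMB5, PSMB6 and PSMB7 do the cutting. In lymphoid cells, and in other cells after interferon, PSMB8, PSMB9 and PSMB10 can take the places of PSMB5, PSMB6 and PSMB7, which gives the immunoproteasome and changes the peptides made for MHC class I presentation. A regulator docks on the barrel: the 19S particle, whose PSMC ATPases unfold the substrate and whose PSMD subunits bind and remove ubiquitin, or a PSME activator, which opens the barrel without ubiquitin.

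Promoter sequences help to place the members, since interferon, STAT and antioxidant response elements are known regulatory sites of proteasome genes. RefSeq gave windows of 250 bases before the transcription start (assembly GRCh38.p14) for 31 of the 36 genes, in 36 windows because some genes have several starts; PSMA7, PSMB1, PSMB6, PSMB7 and PSMD4 had none. The windows shown are those of the pair of genes that moved furthest apart within the catalytic sites (PSMB8 and PSMB5) and of 3 regulator genes with large changes (PSMC3, PSMC6 and PSMD12), each at its most upstream start. Capitals mark matches on either strand to TGANNNNGC, a loose form of the antioxidant response element core. It allows any base after TGA, such as the A in the marked stretches of PSMB8 and PSMC3, so a match need not be the element. PSMB8 lies at chr6:32844680-32844929, minus strand, PSMB5 at chr14:23035221-23035470, minus strand, PSMC3 at chr11:47426440-47426689, minus strand, PSMC6 at chr14:52706950-52707199, plus strand, and PSMD12 at chr17:67366578-67366827, minus strand.
PSMB8: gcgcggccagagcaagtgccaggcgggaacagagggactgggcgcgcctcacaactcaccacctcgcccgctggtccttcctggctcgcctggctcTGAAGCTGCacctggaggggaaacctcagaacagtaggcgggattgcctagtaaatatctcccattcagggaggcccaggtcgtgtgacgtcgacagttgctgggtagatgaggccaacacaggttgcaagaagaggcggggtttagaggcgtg
PSMB5: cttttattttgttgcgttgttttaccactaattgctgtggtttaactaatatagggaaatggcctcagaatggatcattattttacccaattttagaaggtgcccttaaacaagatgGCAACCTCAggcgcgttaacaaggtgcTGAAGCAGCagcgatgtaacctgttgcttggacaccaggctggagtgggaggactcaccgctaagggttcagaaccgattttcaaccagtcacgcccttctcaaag
PSMC3: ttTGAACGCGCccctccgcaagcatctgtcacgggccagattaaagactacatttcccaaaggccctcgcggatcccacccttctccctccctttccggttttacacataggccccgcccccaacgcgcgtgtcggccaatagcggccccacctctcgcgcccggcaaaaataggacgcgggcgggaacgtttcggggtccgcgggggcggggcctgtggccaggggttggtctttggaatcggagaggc
PSMC6: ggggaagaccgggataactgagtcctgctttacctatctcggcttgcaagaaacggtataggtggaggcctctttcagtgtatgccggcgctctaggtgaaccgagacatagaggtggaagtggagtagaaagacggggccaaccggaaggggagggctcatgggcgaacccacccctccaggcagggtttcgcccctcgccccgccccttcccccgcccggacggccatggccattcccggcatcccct
PSMD12: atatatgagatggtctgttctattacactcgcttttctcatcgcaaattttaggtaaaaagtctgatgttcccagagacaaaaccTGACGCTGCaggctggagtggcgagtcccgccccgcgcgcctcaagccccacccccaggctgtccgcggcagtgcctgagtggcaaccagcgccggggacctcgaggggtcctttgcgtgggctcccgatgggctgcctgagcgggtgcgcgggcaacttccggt

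On both strands, TGANNNNGC was found in 20 of the 36 member windows (55.6%), from 18 genes, and in 35.2% of all 35116 windows of the same length. The gamma-activated (STAT) motif TTCNNNGAA was found in 6 member windows (16.7%), of PSMA2, PSMB5, PSMB8, PSMC4, PSMD3 and PSME3, and in 6.57% of all windows. In PSMB8 it lay 65 to 57 bases before the second of 2 starts, and PSMB5 held it at 2 places before its second start, so neither copy is in the windows shown. The interferon-stimulated response element core, GAAA, any 2 bases and GAAA again, was found in 3 member windows (8.33%), of PSMA4, PSMB10 and PSMB4, and in 3.02% of all. It and TTCNNNGAA were searched apart from each other and may overlap. A match is a description of letters and was not tested for binding, and no match says only that these letters are not in this window.

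The 36 genes were followed over 11 groups of 3 arrays, all of human anaplastic large cell lymphoma (ALCL) lines that express the ALK tyrosine kinase: Su-DHL1, and TS, which was subcloned from Sup-M2. In 7 groups the cells carried a lentiviral short hairpin RNA that doxycycline switches on, after infection with a KRAB repressor construct and sorting by flow cytometry; the labels do not call the sorted cells single clones. Hairpin A5 targets ALK and A5M is its mutated control. TS cells with A5 were sampled at 84 h and again at 72 h, each time induced by doxycycline or uninduced. TS cells with A5M were sampled at 84 h, induced only. For Su-DHL1, A5 was sampled at 72 h, induced or uninduced. Cells without doxycycline therefore differ from the induced ones in the drug as well as in the hairpin, and only A5M shares the drug. The other 4 groups were TS cells kept for 6 h: 3 received 300 nM of A1, of A2 or of A3, and the last, U, received none of these. A2 and A3 are the ALK inhibitors of the series. By the samples' own descriptions A1 is an ALK inhibitor and U untreated, while the design text calls A1 a mock compound and speaks of diluent as the control; A1 is used here as the control compound and U beside it. The labels do not say that the 3 arrays of a group came from separate cultures, so the p-values speak only of variation among these arrays, and that variation may be technical.

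ALK itself was lower in every induced A5 group: its signal averaged 248 with and 2039 without doxycycline in TS at 84 h, 330.2 and 1823 in TS at 72 h, and 637 and 2966 in Su-DHL1, with 1686 in TS with A5M. After 6 h the averages were 3471 (U), 3643 (A1), 2884 (A2) and 2734 (A3). The ALCL markers ALK, TNFRSF8 (CD30), IL2RA, GZMB, PRF1 and TIA1 lay at or above the 40th percentile on 33 of 33 arrays. None of 4 measured B-cell markers did so on most arrays, and CD79B did on 0. CD14, LYZ, EPCAM, KRT19 and CDH1 did on 0 arrays, whereas 2 of 5 myeloid markers, CSF1R and CD163, and 2 of 6 epithelial and stromal ones, KRT18 and COL1A1, did on most. In such bulk samples, fewer cells of a type and less RNA per cell cannot be told apart. The ACTB 3' to 5' signal ratio, a sign of RNA quality, moved with the groups. It averaged 1.27 in induced and 1.54 in uninduced TS cells at 84 h and 1.52 with A5M, 1.32 and 1.59 at 72 h, 1.36 and 1.39 in Su-DHL1, and 1.18, 1.33, 1.05 and 1.06 in U, A1, A2 and A3.

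Induction of the ALK hairpin lowered some proteasome genes and raised fewer. Over the mean of the 3 A5 effects, 17 of 36 genes changed: 12 fell and 5 rose. The largest falls were in the 19S ATPase gene PSMC6, the immunosubunit gene PSMB8 and the 19S lid gene PSMD12, and the largest rise was in PSMB5, the constitutive gene whose place PSMB8 can take. The sizes were small: log2 fold changes ran from -0.65 to 0.33, after 11 was added to each signal before taking log2, a step that shrinks the folds of dim genes. A gene was called at a Benjamini-Hochberg adjusted p below 0.05 over all genes tested with limma. At that limit 50.8% of all 9097 genes were called over the same contrast, 29.1% higher and 21.7% lower, so the members' total of 47.2% is near the background, while 33.3% of members and 21.7% of all genes were lower. The median member had a log2 fold change of -0.04 and the median gene 0.07.

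By setting, 15 of 36 genes were called in TS at 84 h (5 higher, 10 lower; 40.7% of all genes, 21.8% higher and 18.8% lower), 8 in TS at 72 h (1 higher, 7 lower; 34.2% of all genes, 19% and 15.2%) and 11 in Su-DHL1 (1 higher, 10 lower; 24.6% of all genes, 13.9% and 10.7%). PSMB3, PSMB8, PSMC6, PSMD3 and PSMD12 were called lower in all 3 settings, which is 13.9% of members against 8.33% of all genes. Of these, PSMD3 lost its TS 72 h call in 7 of 16 alternatives, and PSMD3 and PSMB8 each lost theirs in Su-DHL1 in 5 of 16. Without any 1 of its 6 arrays the Su-DHL1 count was 6 or 7. With the ACTB 3' to 5' ratio as a covariate the counts were 5 in TS at 84 h (1 higher, 4 lower) and 5 in TS at 72 h (2 higher, 3 lower). In Su-DHL1 this ratio averaged 1.36 induced and 1.39 uninduced. There the alternatives other than leaving out 1 array, this covariate among them, gave 7 to 14. No member was called higher in all 3, against 9.24% of all genes, and none was called in opposite directions. In contrast, 18 of 36 genes were called in none of the 3 settings, as were 50.3% of all genes. The 3 settings share no array. With the same covariate, 7 of 36 genes were called over the mean A5 effect, namely PSMB3, PSMB5, PSMB8, PSMC6, PSMD12, PSMD14 and PSME3, 1 higher and 6 lower.

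**Figure D1:**
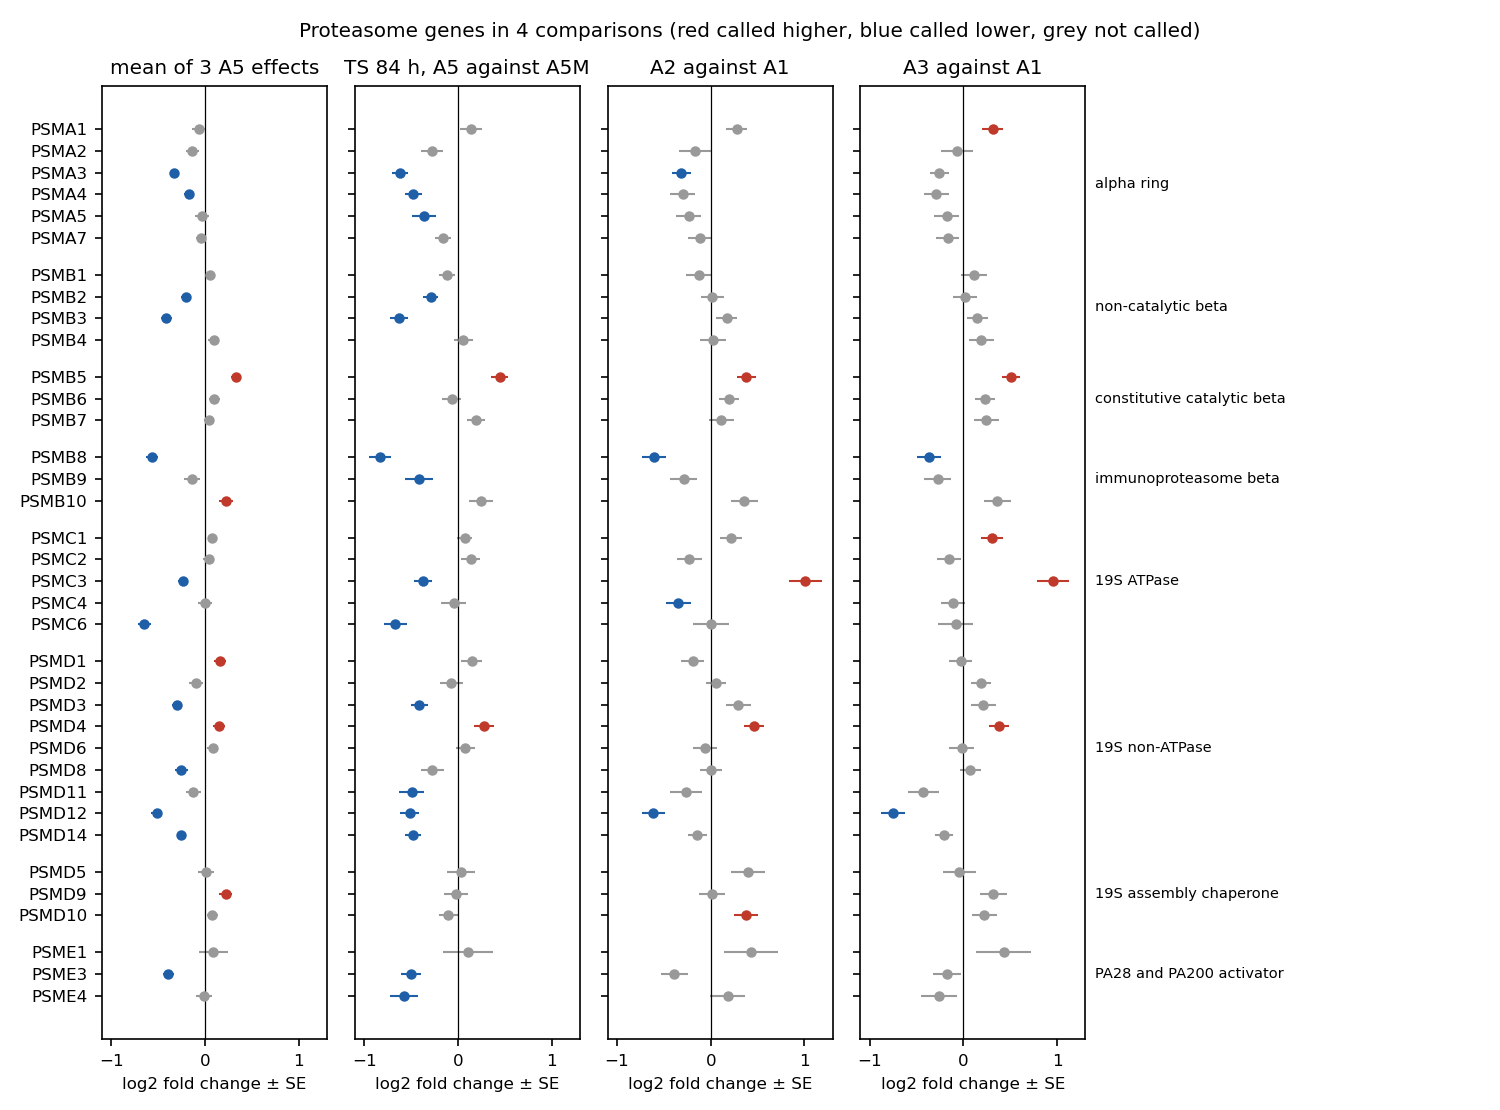
Log2 fold change ± SE (x axis, limma) of the 36 proteasome genes (rows, grouped by role) for the mean of the 3 A5 doxycycline effects, A5 against A5M in TS at 84 h, and A2 and A3 each against A1. Red points were called higher and blue lower: PSMB8 and PSMD12 are blue and PSMB5 is red in all 4 columns, whereas PSMC3 is blue in the first 2 and red in the other 2.

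The comparison with the control hairpin, in which both groups had doxycycline, gave 17 called genes, 2 higher and 15 lower (43.3% of all genes called, 23.3% higher and 20% lower). These arrays include the induced TS cells at 84 h, so this comparison and the one at 84 h share samples and their values stand side by side only. PSMB8 was -0.83 against A5M and -0.68 against uninduced A5, and PSMB5 was 0.44 and 0.55. The ACTB covariate left 8 called against A5M. A5M against uninduced A5 called 1 member, PSMD9, a 19S assembly chaperone (0.46 ± 0.12, adjusted p = 0.026, limma), higher in A5M, with 7% of all genes called, 3.24% higher. Without 1 array, this count ran from 0 to 5, and it was 0 without replicate 2 of uninduced A5 or replicate 2 or 3 of A5M. PSMD9 was at 885, 708 and 734 in induced A5 cells, 716, 775 and 862 in A5M cells and 622, 439 and 664 in uninduced A5 cells. Both doxycycline groups lay above the uninduced one, and against A5M the A5 cells differed by -0.02 (adjusted p = 0.92). A second, dimmer probe set of PSMD9 did not share this. It had the opposite sign for A5M against uninduced A5, not called. For induced against uninduced A5 at 84 h it was at -0.36 (adjusted p = 0.125, limma).

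The alpha ring forms the gate of the barrel. Of its 6 measured genes, PSMA3 and PSMA4 fell over the mean A5 effect and none rose. PSMA3 read 1037, 1021 and 958 in induced and 1191, 1377 and 1504 in uninduced TS cells at 84 h, 1495, 1506 and 1533 against 1641, 1751 and 1849 at 72 h, and 1571, 1723 and 1505 against 2001, 2019 and 2117 in Su-DHL1. The induced arrays lay below the uninduced ones in each of the 3 settings. Over the mean, PSMA3 was -0.33 ± 0.05, adjusted p = 7.3e-06 (limma, Benjamini-Hochberg), and PSMA4 was -0.17 ± 0.05, adjusted p = 0.0099. Both calls were lost with the ACTB covariate (adjusted p = 0.087 and 0.66). PSMA1, PSMA2, PSMA5 and PSMA7 were between -0.13 and -0.03 and were not called. Of the other 2 probe sets of PSMA1, 1 was called lower (-0.19, adjusted p = 0.0095, limma). After 6 h, PSMA3 was -0.31 with A2 against A1 (adjusted p = 0.024) and -0.26 with A3 (adjusted p = 0.0602).

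PSMA1 went the other way at 6 h. Its signal was 1806, 2156 and 2141 with A2, 1969.7, 2206 and 2058 with A3, 1756, 1709.8 and 1556 with A1 and 1337, 1369 and 1613 in U. The arrays of both A2 and A3 lay above those of A1 and U. Against A1, PSMA1 was 0.28 ± 0.11 with A2 (adjusted p = 0.067) and 0.31 ± 0.11 with A3 (adjusted p = 0.042), and against U it was 0.50 and 0.53, both called. PSMA1's other probe sets did not share this: they were at 0.06 and 0.00 with A2 and at -0.05 and -0.11 with A3 against A1, none called.

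The beta ring also holds subunits without a catalytic site. Of 4 measured, PSMB2 and PSMB3 fell over the mean A5 effect, and PSMB1 (0.05) and PSMB4 (0.09) were not called. PSMB3 read 1849.6, 1952 and 2141 in induced and 3061, 2765 and 2931 in uninduced TS cells at 84 h, 2198, 2295 and 2477 against 2822, 2811 and 3281 at 72 h, and 1751, 2199.7 and 1992 against 2504, 2391 and 2554 in Su-DHL1. No induced array reached an uninduced one of its setting. PSMB3 was -0.41 ± 0.06, adjusted p = 1.1e-06 over the mean (limma), and -0.56, -0.35 and -0.33 by setting. PSMB2 was -0.21 ± 0.05, adjusted p = 0.00068, and its call was lost with the mean over its 2 probe sets and with the ACTB covariate. After 6 h neither gene was called with A2 or A3 against A1.

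Among the 3 constitutive catalytic genes, PSMB5, which gives the chymotrypsin-like activity that proteasome inhibitor drugs bind, rose in TS cells. It read 1944, 1696 and 1707 in induced and 1139.6, 1349.6 and 1162 in uninduced cells at 84 h, and 2079, 1799.7 and 1848 against 1439.9, 1473 and 1354 at 72 h. The induced arrays were all above the uninduced ones, and above those of A5M, which read 1171, 1335 and 1419. The rise was 1.46-fold at 84 h (log2 fold change 0.55 ± 0.09, adjusted p = 4.5e-05, limma) and 1.34-fold at 72 h (0.42 ± 0.09, adjusted p = 0.0011). In Su-DHL1 the arrays of the groups overlapped, with 1865, 2096 and 1881 induced and 2062, 1854 and 1791 uninduced, and the difference was 0.03 ± 0.09 (95% interval -0.16 to 0.23). The effect in Su-DHL1 minus that in TS at 72 h was -0.39 ± 0.13, with an adjusted p of 0.14, so the lines were not shown to differ. PSMB6, of caspase-like activity, and PSMB7, of trypsin-like activity, were not called in any of the 3 settings and averaged 0.10 (95% interval -0.03 to 0.23) and 0.04 (-0.07 to 0.15).

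After 6 h with compound, PSMB5 was at 1441, 1568 and 1376 with A2 and 1561, 1678 and 1538 with A3, against 1045, 1146 and 1168 with A1. The arrays of A2 and A3 lay above those of A1, and above those of U at 1326, 1298 and 1304. Against A1 the gene was 0.38 ± 0.10, adjusted p = 0.0062 with A2 and 0.50 ± 0.10, adjusted p = 0.00075 with A3 (limma). Against U it was 0.16 with A2 (adjusted p = 0.25) and 0.28 with A3 (adjusted p = 0.037), and all 3 A1 arrays lay below the 3 U arrays (-0.23 ± 0.10, adjusted p = 0.52). With the ACTB covariate the differences from A1 were 0.31 with A2 (adjusted p = 0.19) and 0.43 with A3 (adjusted p = 0.057). PSMB6 and PSMB7 were not called with either compound against A1.

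Of the immunosubunit genes, PSMB8 fell with the ALK hairpin in all 3 settings and with both A2 and A3. Its signal was 439, 474 and 504 in induced TS cells at 84 h, 653, 922 and 728 in uninduced cells and 788, 837 and 919 in A5M cells. At 72 h it was 559, 583 and 638 induced and 989.8, 862 and 979 uninduced in TS, and 837, 678 and 661 against 966, 856 and 975 in Su-DHL1. Induced and uninduced arrays did not overlap in any setting, though in Su-DHL1 the highest induced array came close to the lowest uninduced one. PSMB8 was 1.48-fold lower over the mean (-0.57 ± 0.07, adjusted p = 1.2e-07, limma), and -0.68, -0.66 and -0.36 by setting. The Su-DHL1 call (adjusted p = 0.023) was lost under quantile normalization and without any of 4 of its 6 arrays, where the value ran from -0.47 to -0.30. Su-DHL1 minus TS at 72 h was 0.30 ± 0.16 (adjusted p = 0.46).

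At 6 h PSMB8 was at 415, 508 and 391 with A2 and 526, 464 and 557 with A3, against 696, 692 and 615 with A1 and 608, 759 and 778 in U. Every A2 and A3 array lay below every A1 and U array. The difference from A1 was -0.60 ± 0.13, adjusted p = 0.0016 with A2 and -0.37 ± 0.13, adjusted p = 0.038 with A3 (limma). With the ACTB covariate these became adjusted p = 0.14 and 0.52, and the A3 call was lost in 7 of 16 alternatives in all. A3 minus A2 was 0.24 (95% interval -0.04 to 0.51, adjusted p = 0.63).

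PSMB9 and PSMB10, the other immunosubunit genes, gave other values. PSMB9 was at 654, 942 and 619 in induced, 775, 848 and 1138 in uninduced and 987, 1144 and 808 in A5M cells at 84 h, and the groups overlapped. It was -0.32, -0.20 and 0.11 in the 3 settings and -0.14 ± 0.09 over the mean (95% interval -0.31 to 0.04, adjusted p = 0.198). It was called only against A5M (-0.41 ± 0.15, adjusted p = 0.026), and lost that call in 8 of 16 alternatives. PSMB10 had higher values: 252, 255 and 265 in induced and 209, 193 and 190.1 in uninduced Su-DHL1 cells, without overlap, 0.37 in that setting and 0.22 ± 0.07, adjusted p = 0.015 over the mean. Quantile normalization and the ACTB covariate each ended the PSMB10 call over the mean. After 6 h PSMB9 was -0.29 and -0.28, and PSMB10 0.36 and 0.36, with A2 and A3 against A1, none called (adjusted p between 0.065 and 0.15).

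Whether an immunosubunit gene moved apart from the constitutive gene whose place it takes was tested within arrays, as the log2 difference of the pair, by an exact permutation of the doxycycline labels within the 3 settings (two-sided, 18 arrays, 8000 labellings, smallest possible p 0.00025). The difference of a pair is used only for its change, since levels of 2 probe sets cannot be set against each other. PSMB8 minus PSMB5 changed by -0.90 on average (exact permutation p = 0.00025, the smallest possible; adjusted over the 3 pairs 0.00075). It was -1.22 in TS at 84 h, -1.08 in TS at 72 h and -0.40 in Su-DHL1. PSMB9 minus PSMB6 differed by -0.24 (exact p = 0.051, adjusted 0.051) and was -0.34, -0.42 and 0.05 by setting. PSMB10 minus PSMB7 differed by 0.18 (exact p = 0.0505, adjusted 0.051) and was 0.03, 0.07 and 0.45. Of the 3 pairs only the first passed, and the third has the opposite sign. Leaving out 1 array of 18 brought each of the other pairs past 0.05 for 3 arrays, with the lowest adjusted p at 0.019 (without Su-DHL1 induced replicate 3) and 0.015 (without TS 84 h induced replicate 1).

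**Figure D2:**
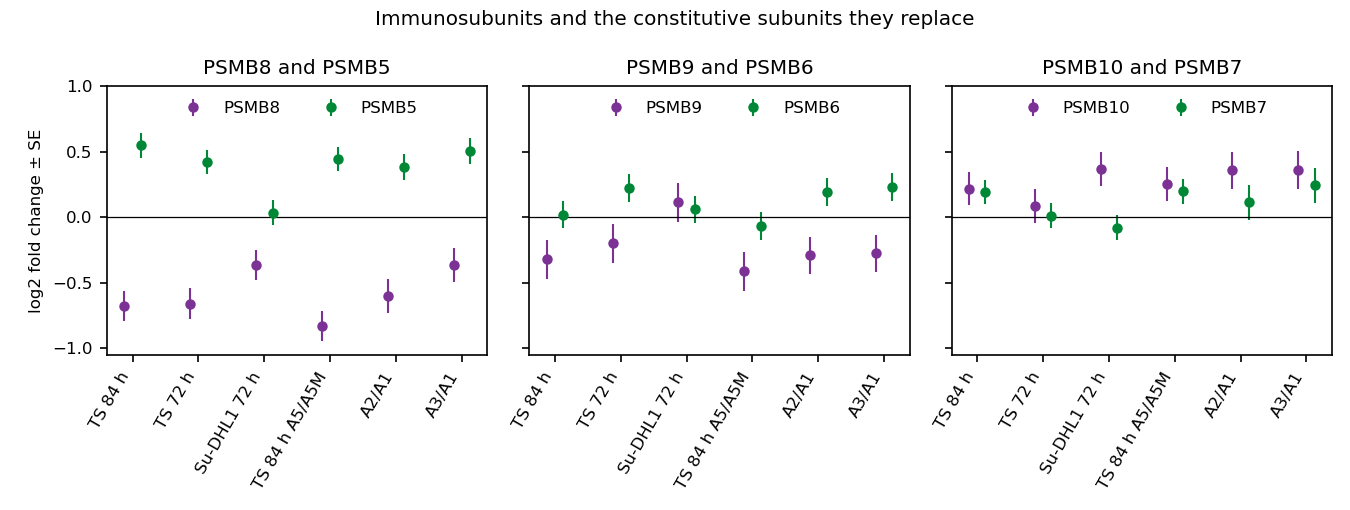
Log2 fold change ± SE (y axis, limma) of each immunosubunit gene (purple) and its constitutive counterpart (green) for the 3 A5 settings, A5 against A5M, and A2 and A3 against A1 (x axis). PSMB8 lies below 0 and PSMB5 above 0 in all 6, although PSMB5 in Su-DHL1 was 0.03.

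The 19S ATPases unfold substrates and open the gate. Of 5 measured, PSMC3 and PSMC6 fell over the mean A5 effect, and PSMC1, PSMC2 and PSMC4 were not called. PSMC6 read 366, 369.9 and 293 in induced and 618, 494 and 543 in uninduced TS cells at 84 h, 489, 495 and 483 against 789, 753 and 709 at 72 h, and 670, 729 and 712 against 1121, 1275 and 1005 in Su-DHL1. The groups did not overlap in any setting. The gene was 1.57-fold lower over the mean (-0.65 ± 0.07, adjusted p = 3.1e-08, limma), and -0.67, -0.60 and -0.67 by setting. At 6 h the PSMC6 arrays of A1, A2, A3 and U overlapped, and A2 and A3 differed from A1 by 0.00 (95% interval -0.40 to 0.41) and -0.09 (-0.49 to 0.32). The lowest group mean of PSMC6 was 334.4, with A3. The A1 control thus lay near the induced, not the uninduced, TS hairpin arrays at 84 h.

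PSMC3 had opposite directions in the 2 experiments. With the hairpin it read 399.7, 457 and 427 induced and 545, 521 and 555 uninduced in TS at 72 h, and 479, 498 and 533 against 644, 611 and 606 in Su-DHL1, without overlap. At 84 h the A5 groups overlapped, with 344, 329 and 349 and 396, 324 and 371, and the A5M arrays were at 392, 444 and 499. It was -0.24 ± 0.06, adjusted p = 0.00088 over the mean (limma), a call lost with the ACTB covariate (adjusted p = 0.073). At 6 h it was at 759.7, 762 and 694 with A2, 671, 713 and 745 with A3, 393, 282 and 423 with A1 and 556, 323 and 359 in U. All A2 and A3 arrays lay above all A1 and U arrays, though 1 U array stood above its other two. PSMC3 was 2.01-fold higher with A2 (1.01 ± 0.17, adjusted p = 0.00023) and 1.94-fold higher with A3 (0.95 ± 0.17, adjusted p = 0.000405) than with A1. These were the largest rises among the members at 6 h, and the ACTB covariate raised their adjusted p to 0.076 and 0.094.

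PSMC2 and PSMC4 were called only at 84 h among the hairpin settings, at 0.29 and 0.38, each lost in 4 of 16 alternatives. PSMC2 has a second, dimmer probe set, which was at 0.37 over the mean A5 effect (adjusted p = 0.0003) where the one used was at 0.04 (adjusted p = 0.63), so the probe sets disagree on whether PSMC2 changed. PSMC4 with A2 against A1 was -0.35 ± 0.13, adjusted p = 0.0498, and PSMC1 with A3 against A1 was 0.30 ± 0.11, adjusted p = 0.049; these calls were lost in 11 and 10 of 16 alternatives.

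The 19S non-ATPases form the base scaffold and the lid. Of 9 measured genes, PSMD3, PSMD8, PSMD12 and PSMD14 fell over the mean A5 effect and PSMD1 and PSMD4 rose. PSMD12, a lid scaffold gene, read 760.1, 603 and 626 in induced and 1047, 908 and 918 in uninduced TS cells at 84 h, 997, 969 and 987 against 1167, 1362 and 1239.8 at 72 h, and 1003, 1013 and 957 against 1537, 1605 and 1627 in Su-DHL1. There was no overlap in any setting. PSMD12 was 1.43-fold lower over the mean (-0.52 ± 0.06, adjusted p = 6.8e-08, limma), and its second probe set was at -0.36 (adjusted p = 5.1e-05). At 6 h it was at 857, 754 and 671 with A2 and 676, 617 and 764 with A3, against 1214, 1046 and 1233 with A1 and 1312, 1311 and 1059 in U, with all A2 and A3 arrays below all others. That was -0.61 ± 0.13, adjusted p = 0.0013 with A2 and -0.76 ± 0.13, adjusted p = 0.00021 with A3 against A1. The second probe set was at -0.61 with A2 (adjusted p = 0.004) but at -0.04 with A3 (adjusted p = 0.88), so the A3 result rests on 1 of 2 probe sets. With the ACTB covariate the A2 difference was -0.52 (adjusted p = 0.085) and the A3 difference -0.67, the latter still called.

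PSMD14, the deubiquitinase of the lid, read 1737, 1971 and 1949 in induced, 2632, 2644 and 2317 in uninduced and 2472, 2567 and 2847 in A5M cells at 84 h. The induced arrays lay below both control groups. It was -0.25 ± 0.05, adjusted p = 9e-05 over the mean (limma), -0.42 at 84 h, -0.07 at 72 h in TS and -0.27 in Su-DHL1, and the effect at 84 h minus that at 72 h was -0.35 ± 0.12 (adjusted p = 0.201). PSMD3, a lid scaffold gene, was -0.30 ± 0.05, adjusted p = 5.4e-05, and PSMD8, of the lid, was -0.25 ± 0.07, adjusted p = 0.0051; both calls were lost with the ACTB covariate. PSMD4, a ubiquitin receptor, was 0.15 and PSMD1, the base scaffold, 0.16. Their adjusted p was 0.047 and 0.037 (limma), and 16 and 14 of 28 alternatives lost these calls. Their other probe sets were also called higher over the mean. They were at 0.30 and 0.23 for PSMD4 (adjusted p = 0.0021 and 0.0067, limma) and at 0.15 for PSMD1 (adjusted p = 0.024). At 6 h PSMD1 was lower against U, at -0.52 with A2 (adjusted p = 0.003, limma) and -0.35 with A3 (adjusted p = 0.033). Its other probe set was at -0.43 (adjusted p = 0.014) and -0.12 (adjusted p = 0.51). Against A1, neither PSMD1 probe set was called. PSMD4 also rose at 6 h, from 1045, 1185 and 1193 with A1 to 1482, 1687 and 1564 with A2 and 1431, 1533 and 1479 with A3, without overlap (0.46 ± 0.11, adjusted p = 0.0028 and 0.38 ± 0.11, adjusted p = 0.012). Its other probe sets differed: 1 was at 0.13 with A2 (adjusted p = 0.38) and 0.09 with A3 (adjusted p = 0.57), and the other at 0.58 (adjusted p = 0.0096) and 0.33 (adjusted p = 0.12), so with A3 only 1 of 3 was called. PSMD2, PSMD6 and PSMD11 were not called over the mean A5 effect, at -0.10, 0.08 and -0.13.

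PSMD5, PSMD9 and PSMD10 encode chaperones that help to assemble the 19S base. Only PSMD9 was called over the mean A5 effect (0.22 ± 0.07, adjusted p = 0.014, limma), and its second, dimmer probe set was at -0.02 (adjusted p = 0.89). PSMD5 and PSMD10 were 0.01 and 0.08. At 6 h PSMD10 was at 645, 526 and 612 with A2 and 514, 393 and 464 with A1, without overlap (0.37 ± 0.13, adjusted p = 0.035), and 0.22 with A3 (adjusted p = 0.21).

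Among the activators, PSME1 belongs to the interferon-inducible PA28 ring, PSME3 forms the nuclear PA28 gamma ring and PSME4 encodes PA200. PSME3 fell: it read 851, 870 and 955 in induced and 1295, 1475 and 1285 in uninduced Su-DHL1 cells, 605, 735 and 669 against 934, 941 and 756 in TS at 72 h, and 488, 579 and 575 against 689, 621 and 586 in TS at 84 h. The groups did not overlap in any of the 3, but in TS at 84 h the highest induced and lowest uninduced arrays were close. PSME3 was -0.39 ± 0.06, adjusted p = 5.4e-06 over the mean (limma), with -0.59 in Su-DHL1, -0.38 in TS at 72 h and -0.20 at 84 h (adjusted p = 0.12). Its other 3 probe sets were at -0.18 (adjusted p = 0.072), -0.78 and -0.42 over the mean, the last 2 called. At 6 h the probe set used was -0.39 with A2 (adjusted p = 0.054) and -0.17 with A3 (adjusted p = 0.41), while the others were at -0.62, -1.08 and -0.74 with A2, all called, and at -0.48, -0.91 and -0.79 with A3, the last 2 called. Whether PSME3 was called against A1 at 6 h thus depends on which probe set is read, though each was below 0. Against U, the probe set used was at -0.51 with A2, called, and at -0.30 with A3, not called. The other 3 were all called lower against U, at -0.77, -1.40 and -0.87 with A2 and at -0.63, -1.23 and -0.92 with A3.

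PSME1 was called in none of the 15 comparisons, and its arrays varied widely: 1040.1, 1639 and 877 in induced, 858, 1046 and 1528 in uninduced and 1342, 1584 and 564 in A5M cells at 84 h. Its mean A5 effect was 0.09 (95% interval -0.23 to 0.41). PSME4, by the probe set used, was -0.01 over the mean (-0.18 to 0.17). That probe set was called only against A5M, with 213, 263 and 274 in A5 and 359, 359.5 and 409.6 in A5M cells (-0.58 ± 0.15, adjusted p = 0.0024, limma). That call was lost with the mean over its 3 probe sets and with the ACTB covariate. The other 2 probe sets, both dimmer, were at -0.09 and -0.10 against A5M, neither called. The first of them was called higher against U, at 0.66 with A2 and 0.62 with A3. The second was called higher at 84 h against uninduced A5 (0.46, adjusted p = 0.014, limma). With A3 it was also called higher, at 0.55 against A1 and 0.76 against U. The probe sets thus disagree on whether PSME4 changed.

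**Figure D3:**
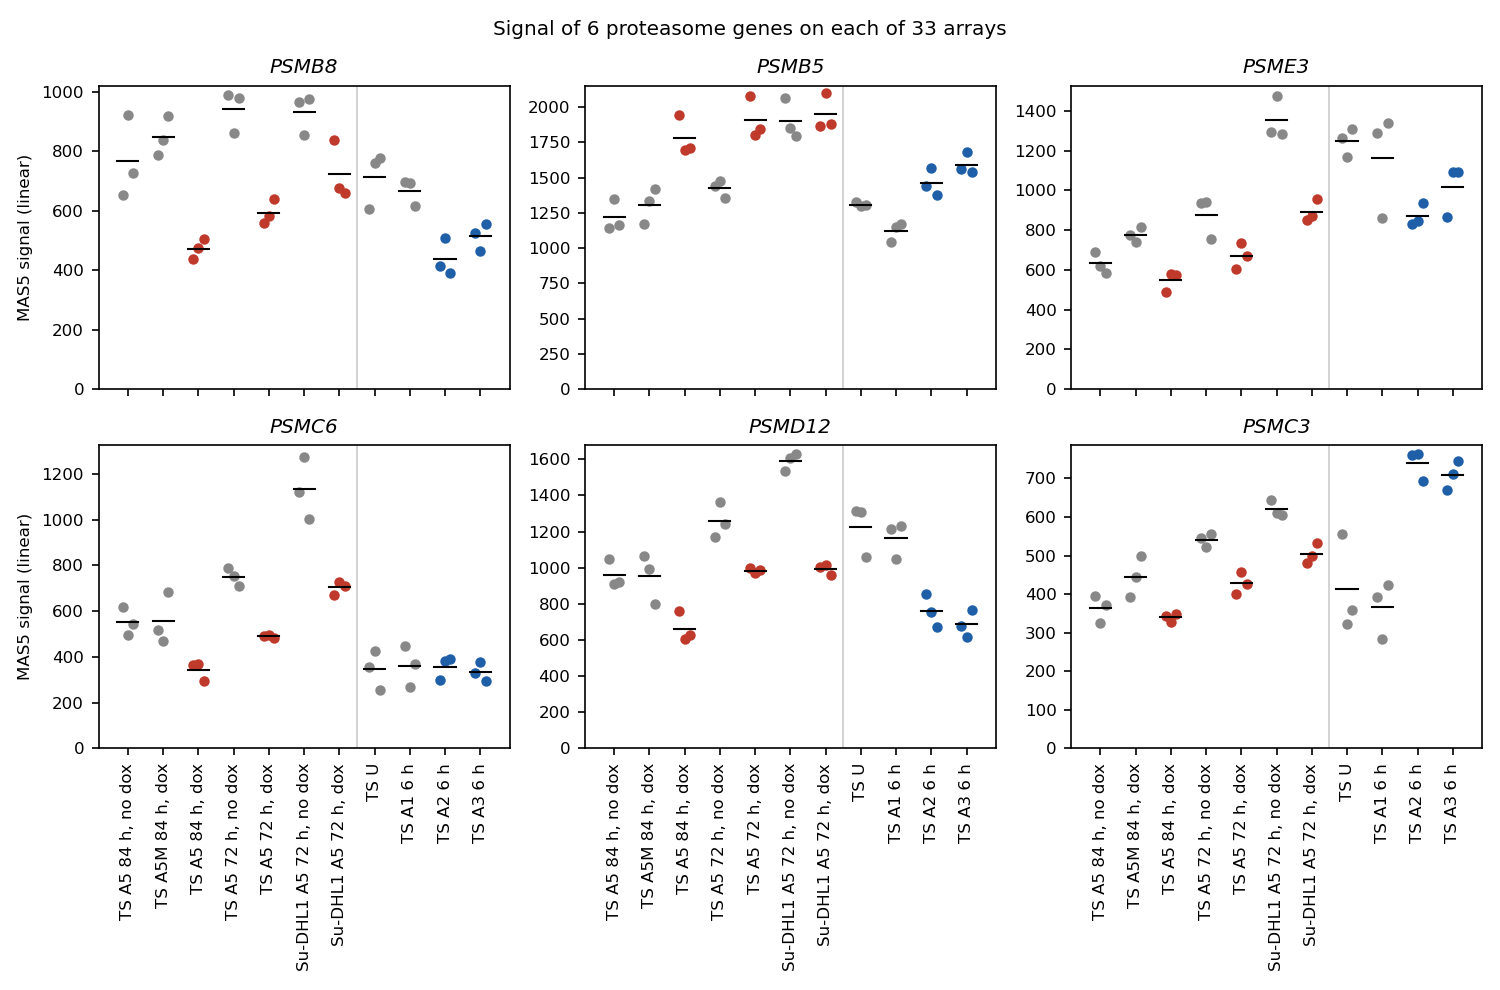
MAS5 signal (y axis, linear scale from 0) of 6 proteasome genes on each of the 33 arrays, by group (x axis), with a bar at each group's mean; red points are A5 cells with doxycycline, blue points A2 or A3, and grey points the rest. PSMB8 and PSMD12 lie lower in red and blue than in their grey controls, and PSMC3 is highest in blue. PSMC6 is lower than its grey controls in red only, but its lowest group mean, 334.4, is that of A3 at 6 h.

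Over all 11 groups, the ratio of a gene's highest to its lowest group mean had a median of 1.68 among the 36 genes and ran from 1.23 (PSMB4) to 3.39 (PSMC6). The medians were 1.6 for the constitutive core, 2.15 for the 3 immunosubunit genes and 1.73 for the regulators. The regulators had their highest mean in a Su-DHL1 group in 10 of 20 genes, the constitutive core in 4 of 13 and the immunosubunits in 0 of 3. The 2 experiments and the 2 lines differ in time and handling as well, so these ranges describe the groups without a test.

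Without doxycycline, Su-DHL1 cells differed from TS cells at 72 h in 12 of 36 genes, 10 higher and 2 lower (21.2% of all genes called, 10.8% higher and 10.4% lower). All 7 regulators called were higher in Su-DHL1: PSMD8, PSMC4, PSME3, PSMD10, PSMC6, PSMC1 and PSMD12. PSMD8 read 3564, 3302 and 3854 in Su-DHL1 and 2134, 2231 and 2325 in TS, without overlap (0.68 ± 0.13, adjusted p = 0.00031, limma), and PSMC4 read 1182, 1252 and 1155 and 813, 759.6 and 719 (0.64 ± 0.13, adjusted p = 0.00085). Of the core, PSMB5, PSMB6 and PSMB1 were higher, at 0.41, 0.33 and 0.26. The alpha ring gene PSMA7 read 2413, 2266 and 2618 in Su-DHL1 and 3790.3, 3888 and 3529 in TS (-0.62 ± 0.08, adjusted p = 8.5e-06), and PSMB2 was -0.53. PSMB2 and PSME3 lost their calls with the mean over probe sets, and PSMC6, PSMB1 and PSMB6 lost theirs with the ACTB covariate. The PSMB1 call was also lost without any 1 of the 6 arrays, the PSMB6 call without 4 of them and the PSMD12 call without 4. No immunosubunit gene was called: PSMB8 was -0.02 (95% interval -0.26 to 0.22), PSMB9 -0.18 and PSMB10 -0.31 (adjusted p = 0.092). With 1 line on each side, a difference is one between these lines.

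The effect of the hairpin itself was not shown to differ between lines or times. In Su-DHL1 against TS at 72 h, 0 of 36 genes were called by limma, against 2.89% of all genes. At an unadjusted p under 0.05 (limma) there were 4 of 36 members and 13.7% of all genes. For 84 h against 72 h in TS, likewise 0 of 36 were called, against 1.28% of all genes. An unadjusted p under 0.05 (limma) was reached by 4 of 36 members and 10.7% of all genes. The differences ran from -0.42 to 0.31 between lines and from -0.35 to 0.47 between times.

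The compounds were compared in all 6 pairs of the 4 groups, at the same 6 h and, for A1, A2 and A3, the same 300 nM. The labels describe them as pyrrolocarbazole-derived and give no structures. A1 against U called 0 of 36 members by limma, against 0.0349% of all genes. At an unadjusted p under 0.05 (limma) there were 3 of 36 members and 8.91% of all genes. A2 called 8 members against A1 (4 higher, 4 lower; 33.4% of all genes called, 19.1% higher and 14.3% lower) and 11 against U (5 higher, 6 lower; 35.1%, 19.8% and 15.4%). A3 called 7 against A1 (5 higher, 2 lower; 32.7%, 18.5% and 14.2%) and 10 against U (6 higher, 4 lower; 33.7%, 18.8% and 14.9%). These comparisons share A1, U, A2 or A3 arrays with each other. The members' shares, 22.2%, 30.6%, 19.4% and 27.8%, were below those of all genes; this difference was not tested. Without replicate 3 of A2 the A2 count against A1 was 5, and without replicate 1 of A1 the A3 count was 3. The A3 count against U was 5 or 6 without replicate 2 or 3 of U or replicate 1 of A3. With the ACTB covariate, 2 members were called with A2 against A1 (PSMA3 and PSME3) and 1 with A3 (PSMD12).

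A3 against A2 called 0 of 36 members by limma, against 0.151% of all genes. At an unadjusted p under 0.05 (limma) there were 3 of 36 members and 8.87% of all genes. The differences ran from -0.44 for PSMD5 (95% interval -0.82 to -0.07) to 0.31 for PSMD9 (0.01 to 0.61). For the genes called with both compounds against A1, A3 minus A2 was 0.12 for PSMB5 (-0.08 to 0.33), -0.06 for PSMC3 (-0.42 to 0.31), -0.15 for PSMD12 (-0.42 to 0.12) and -0.09 for PSMD4 (-0.32 to 0.14). No difference between A2 and A3 was detectable with 3 arrays each, and the intervals do not show that they act alike.

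The hairpin and the compounds were set against each other in 1 fit of all 33 arrays, chosen after the values were seen, as the mean of A2 and A3 minus A1 less the mean A5 effect. The 2 effects share no array, but differ in time (6 h against 72 or 84 h) and in doxycycline. In that fit 17 members were called with the hairpin (49.1% of all genes called) and 14 with the compounds (37.9%). Of these, 8 were called in the same direction in both: PSMA3, PSMA4, PSMB8, PSMD12 and PSME3 lower, and PSMB5, PSMB10 and PSMD4 higher. That is 57.1% of the members called with compounds and 47.1% of those called with the hairpin, against 53.7% and 41.4% for all genes. PSMC3 and PSMD3 were called in opposite directions.

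The test of the difference called 5 members, each higher with the compounds than with the hairpin (31.5% of all genes called, limma). PSMC3 differed by 1.22 ± 0.14 (adjusted p = 2.3e-08): 0.98 with the compounds and -0.24 with the hairpin. PSMC6 differed by 0.61 ± 0.17 (adjusted p = 0.005), from -0.65 with the hairpin and -0.04 with the compounds. The PSMC6 signal with the control A1 lay near that of induced TS cells at 84 h. Whether that level bears on the difference was not tested. PSMB3, at -0.41 and 0.16, differed by 0.57, PSMD3, at -0.30 and 0.25, by 0.56, and PSMA1, at -0.07 and 0.29, by 0.36. The PSMA1 difference was read from 1 probe set. Its other 2 were at -0.19 and -0.05 over the mean A5 effect. Against A1 they were at 0.06 and 0.00 with A2 and at -0.05 and -0.11 with A3. They were not tested singly for this difference. For PSMB8 and PSMD12 no difference was called, at 0.08 ± 0.13 (adjusted p = 0.68) and -0.17 ± 0.12 (adjusted p = 0.3).

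**Figure D4:**
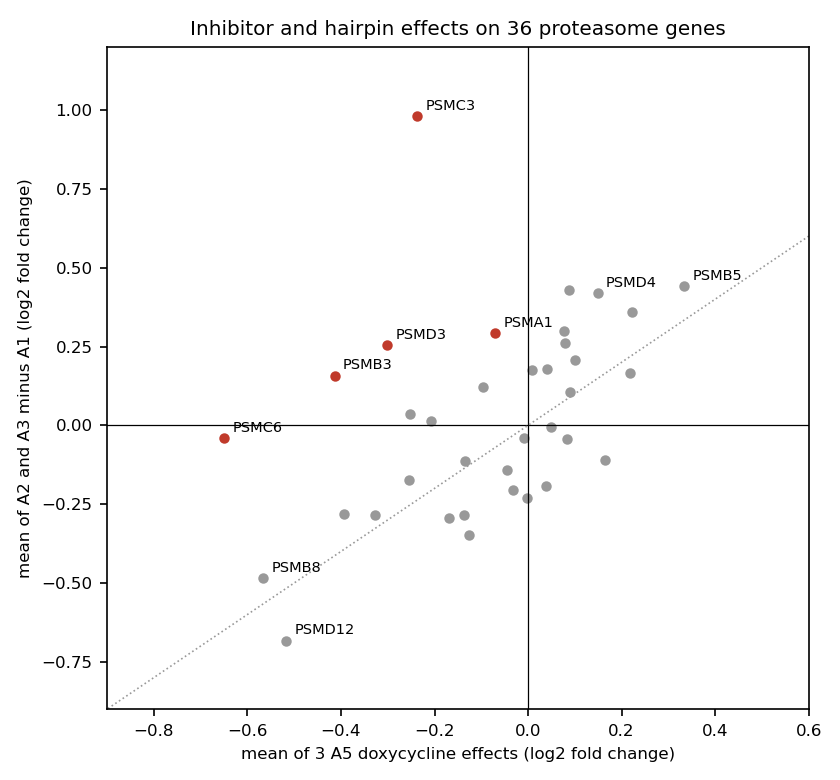
Each point is 1 of 36 proteasome genes, with the mean of the 3 A5 doxycycline effects (x axis) against the mean of A2 and A3 minus A1 (y axis), both log2 fold changes from 1 limma fit; the dotted line marks equal effects and red points are genes whose 2 effects differed. The 5 red points, PSMC3, PSMC6, PSMB3, PSMD3 and PSMA1, all lie above the line, whereas PSMB8, PSMD12 and PSMB5 lie near it.

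Genes that build or serve the proteasome were followed as 6 lists, of which 5 of 7, 6 of 6, 6 of 8, 4 of 9, 12 of 13 and 7 of 9 genes were measured, in the order given here. The first list held core assembly genes together with PAAF1 and the inhibitor PSMF1. Of its 5 measured genes, 3 fell over the mean A5 effect and none rose (21.7% of all genes lower, 50.8% called), with a list median of -0.19. PSMG1, a chaperone that starts the alpha ring, was -0.79 ± 0.05 (adjusted p = 1.3e-11, limma), and was called in all 3 settings at -1.04, -0.89 and -0.45. PSMG2, its partner, was -0.19 and PAAF1, which binds the 19S ATPases, -0.20, while POMP (-0.05) and the inhibitor PSMF1 (-0.01) were not called. In Su-DHL1 alone PSMG2 was -0.01 (adjusted p = 0.97, limma) and PAAF1 -0.14 (adjusted p = 0.54), neither called. PSMG1 was also the only one of the 5 called at 6 h, at -0.75 with A2 and -0.90 with A3 against A1. Of 6 proteasome-bound deubiquitinases, ligases and receptors, 2 fell, which is 33.3% against 21.7% of all genes: SEM1, a lid subunit, at -0.44 and UCHL5, a deubiquitinase, at -0.27. SEM1 was not called in Su-DHL1 alone (-0.13, adjusted p = 0.65, limma), and UCHL5 was called in none of the 3 settings. Against A1 at 6 h only UBE3C, a proteasome-bound ligase, was called, at -0.59 with A2 and -0.58 with A3. Against U, UBE3C (-0.58 and -0.57) and the ubiquitin receptor ADRM1 (-0.40 and -0.43) were called lower with A2 and A3, and SEM1 was called higher (0.66 and 0.63), opposite in sign to its hairpin value. For SEM1, A1 against U was 0.40 (adjusted p = 0.62, limma). Against A1, SEM1 was 0.27 and 0.23 with A2 and A3, not called (adjusted p = 0.37 and 0.45). None of 4 ubiquitin, E1 and shuttle genes was called over the mean A5 effect by limma. Only 1, UBB, had an unadjusted p under 0.05 (limma), as did 55.4% of all genes. UBA1, the ubiquitin-activating enzyme, was 0.73 with A2 and 0.64 with A3 against A1. Against U it was 0.34 (adjusted p = 0.16) and 0.25 (adjusted p = 0.32), not called, and A1 against U was -0.39 (adjusted p = 0.55).

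NFE2L1 is the transcription factor that restores proteasome genes when the protease falls short. Of 6 measured genes of its axis, 3 were higher and 1 lower over the mean A5 effect (29.1% of all genes higher, 21.7% lower, 50.8% called). NFE2L1 was 0.45 (adjusted p = 4.7e-07, limma), its partner MAFG 0.67 and VCP, the ATPase that extracts it from the membrane, 0.42, while NGLY1, which removes its sugars, was -0.53. In Su-DHL1 alone MAFG was 0.26 (adjusted p = 0.42, limma) and VCP 0.08 (adjusted p = 0.65), neither called. For these genes the effects at 72 h were not shown to differ between the lines (adjusted p = 0.36 and 0.1, limma). Against the control hairpin A5M, NFE2L1 was -0.03 (adjusted p = 0.85) and MAFG 0.39 (adjusted p = 0.14), neither called, while VCP was 0.46 and NGLY1 -0.27, both called. A5M cells themselves differed from uninduced A5 cells, with NFE2L1 at 0.37 (adjusted p = 0.024) and NGLY1 at -0.41 (adjusted p = 0.0075). At 6 h against A1, NFE2L1 was 0.49 with A2 and 0.48 with A3 and VCP 0.29 and 0.35, and MAFF, another small partner, was -1.04 and -0.99, all called. Against U, VCP was 0.11 and 0.16 and was not called (adjusted p = 0.48 and 0.26, limma), while NFE2L1, at 0.67 and 0.66, and MAFF, at -1.18 and -1.13, were. MAFG was called lower against U, at -0.54 with A2 and -0.58 with A3, opposite in sign to its hairpin value. Against A1 it was -0.41 and -0.46, not called. The median of the axis was 0.21 with the hairpin, -0.26 with A2 and -0.15 with A3.

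MHC class I genes serve the presentation of the peptides. Of 12 measured, 7 rose over the mean A5 effect and none fell (29.1% of all genes higher, 21.7% lower): ERAP2, a peptide-trimming enzyme, at 0.84 ± 0.08 (adjusted p = 6.3e-09, limma), the class I heavy chains HLA-B and HLA-C at 0.61 each and HLA-F at 0.34, HLA-E and the loading factor TAPBP at 0.27 each and B2M at 0.16. HLA-B and HLA-C are closely similar in sequence and their probe sets may share transcripts. The peptide transporter genes TAP1 and TAP2 were 0.31 (adjusted p = 0.054) and -0.07. In Su-DHL1 alone 3 of 12 were called, all higher (13.9% of all genes higher), and against A5M 6 were higher and 1 lower (23.3% and 20%). With A3 against A1 7 of 12 were called higher (18.5% of all genes), and with A2 2 of 12, which is 16.7% against 19.1% of all genes. ERAP2 was 1.01 with A3 and 1.09 with A2 against A1, and 1.01 and 1.09 against U. TAPBP was 0.47 and 0.70 against A1 but 0.18 and 0.40 against U, where neither was called (adjusted p = 0.44 and 0.063). Of 7 interferon signal and early target genes, 4 rose over the mean A5 effect (29.1% of all genes higher, 50.8% called): IRF1 at 0.79, GBP1 at 0.53, IRF9 at 0.45 and GBP2 at 0.29. Against A5M, IRF1 was 0.75 and IRF9 0.50, both called, while GBP1 was 0.24 (adjusted p = 0.15) and GBP2 0.15 (adjusted p = 0.24). IRF1 was -0.05 with A2 and -0.07 with A3 at 6 h, neither called, and the list's large change there was SOCS1, a feedback inhibitor of cytokine signals, at -3.04 and -3.45. Median log2 fold changes over the mean A5 effect were 0.27 for the MHC class I list and 0.29 for the interferon list, against 0.07 for all genes and -0.14 for the 3 immunosubunit genes.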

How the data were processed

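Total RNA of 33 samples was hybridised to Affymetrix human genome arrays, 3 per group. The deposited values are intensities: MAS5 signal per probe set, a linear brightness value, per the submitters' processing notes; the MAS5 version was not given in the sources used here. Each array's trimmed mean (2% off each end) lay between 200.06 and 200.08, so the authors' signals were already scaled to a common mean. Of 22283 probe sets, 68 controls were left out, 19065 of the rest had 1 gene symbol in the platform annotation, 1043 had several and 2107 had none. Arrays give no read depth, and 3 arrays a group limit the precision. Replicate arrays correlated between 0.969 and 0.985, and 0 columns were identical.

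Signals were taken as log2(signal + 11). Probe sets were kept where 3 or more arrays had them at or above the 40th percentile of that array, and the probe set with the highest mean stood for its gene. The 21 hairpin arrays and the 12 compound arrays were fitted apart with limma 3.58.1 (lmFit, eBayes with trend) in R 4.3.3, and p-values were Benjamini-Hochberg adjusted over the 9097 and 8587 genes tested. Calls are at adjusted p under 0.05, and errors beside log2 fold changes are standard errors. Figures were drawn with matplotlib 3.10.9. Fits were tested on simulated data. The members and lists were chosen with earlier results of these data known. Any member could be named; full statistics were meant for the immunosubunits, the constitutive catalytic subunits, the PSME genes and, per comparison, up to 3 called members of highest and 3 of lowest log2 fold change, with up to 4 called genes per list. Members and list genes given in detail beyond that were chosen after their values were seen. The replicate numbers did not pair the samples (median correlation of same-numbered deviations 0.0067 over 63 pairs of hairpin groups and -0.0054 over 18 of compound groups).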

Additional observations from a re-analysis of the deposited data

Results flagged for a closer look

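Among the genes of the followed lists, GBP1, an interferon-induced GTPase, had a different hairpin effect at 84 h and at 72 h in TS cells. It read 229.5, 229.4 and 225.9 in induced and 223.2, 226.0 and 239.4 in uninduced cells at 84 h, which overlap. At 72 h it read 258.7, 281.2 and 270.3 induced and 156.1, 128.8 and 130.0 uninduced, which do not. The effect at 84 h minus that at 72 h was -0.92 ± 0.19 (SE, limma interaction, adjusted p = 0.0086).

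MAFF, a small partner of NFE2L1, had a different hairpin effect in the lines at 72 h. It read 72.6, 66.6 and 70.0 in induced and 121.2, 123.6 and 136.1 in uninduced Su-DHL1 cells, without overlap. In TS it read 98.8, 138.3 and 123.1 induced and 86.5, 140.4 and 103.1 uninduced, with overlap. Su-DHL1 minus TS was -0.90 ± 0.25 (SE, limma interaction, adjusted p = 0.046). No proteasome gene passed either of these tests.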

How the results depend on the processing

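No proteasome gene called in a comparison changed sign under any alternative. Of 1170 alternatives to the 117 called results, not counting those that leave out an array, 1039 kept the call and 131 lost it. With the ACTB 3' to 5' ratio as a covariate, 5 members were called in TS at 84 h, 5 in TS at 72 h, 7 over the mean A5 effect, 8 against A5M, 2 with A2 against A1 and 1 with A3 against A1. Quantile normalization left 7 in Su-DHL1, where no other alternative, apart from leaving out an array, gave fewer. For A5M against uninduced A5, 0 were called with the mean over probe sets, 0 without the trend and 0 with only the groups compared. Without the trend, A3 called 6 against U and 4 against A1. The cause of these changes was not tested.

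Leaving out 1 array gave 11 to 16 called members in TS at 84 h, 6 to 7 in TS at 72 h, 6 to 7 in Su-DHL1, 15 to 17 over the mean, 13 to 19 against A5M, 0 to 5 for A5M against uninduced A5 and 9 to 10 between the lines. It gave 9 to 10 for A2 and 5 to 10 for A3 against U, 5 to 8 for A2 and 3 to 7 for A3 against A1, 5 to 6 for compounds against the hairpin, and 0 for the 4 comparisons without calls. The pair PSMB8 and PSMB5 ran from -0.94 to -0.86, PSMB9 and PSMB6 from -0.29 to -0.19, and PSMB10 and PSMB7 from 0.14 to 0.23. Under the alternatives that kept all arrays, the pairs ran from -0.93 to -0.86, from -0.24 to -0.23 and from 0.06 to 0.19, in that order. With 1 array left out, the last 2 pairs passed without TS 84 h uninduced replicate 2 (adjusted exact p = 0.041 each). PSMB9 and PSMB6 also passed without TS 84 h induced replicate 2 (0.035), and PSMB10 and PSMB7 also without TS 72 h uninduced replicate 1 (0.044).

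With the replicate number as a block, the counts were 16 over the mean, 2 for A5M against uninduced A5, 13 between the lines, 9 for A2 against A1, 6 for A3 against A1, 9 for A3 against U and 5 for compounds against the hairpin, with the other counts as before. Samples share only a number here.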
